A study of Mus musculus with 9 samples.

Results

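Cholesterol and fatty acid synthesis was followed through 33 genes, chosen by symbol, of 55492 rows in the table of 9 D2.0R libraries. The 23 genes of the sterol arm run from acetyl-CoA to cholesterol and include the genes that sense and carry sterols, and the 10 genes of the fatty acid arm make, elongate and desaturate fatty acids and include Srebf1. All 33 symbols were found once each, all 33 passed the filter on low counts, and 12813 genes in all were tested. The lowest estimated count of any of the 33 in a library was 88, for Tm7sf2.

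D2.0R (also written D2.OR) is a mouse mammary adenocarcinoma line used as a model of dormant breast cancer. All cells carried CellTrace Far Red (CTFR), which is diluted at each division, and grew for 1 week in 2% serum before a flow sort into dye-positive, quiescent cells and dye-negative, proliferating cells. The labels name CTFR-positive, bulk and CTFR-negative samples but tie none of the 9 libraries to a kind, so 0 libraries have a group here. The libraries are called by their title numbers and their values are set out in the 3 blocks of title numbers 1 to 3, 4 to 6 and 7 to 9, and by the place (first, second or the third) in a block. These blocks and places are a way to lay out the values, not groups. No condition is read from them, and no test treats their members as replicates. The labels do not say whether each library had a culture of its own, and fewer cells of a kind and less RNA per cell cannot be told apart in such bulk RNA.

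Library totals ran from 18732737 to 41243036 estimated counts. No pair of libraries agreed within sampling noise. Of the epithelial and mesenchymal markers, Krt8, a keratin gene, lay between 146 and 662 CPM (reads scaled to a common library size with TMM factors) and Vim, the vimentin gene, between 3495 and 5849 CPM, while Epcam, an epithelial adhesion gene, reached at most 0.219 CPM. Genes of milk proteins were at or near 0, with Csn2, Wap and Lalba at 0 counts in all 9 libraries and the 6 genes summing to at most 1.26 CPM. The 6 leukocyte markers summed to between 2.82 and 11.0 CPM, nearly all of it Cd68, and Ncr1 had 0 counts throughout. The 6 adipocyte markers summed to between 6.90 and 30.3 CPM, mostly Fabp4 and Cfd, while Adipoq reached at most 1.64 CPM and Lep 0.0693 CPM. The adipocyte sum was highest in library 3 and lowest in library 8, and its part in the results below was not tested.

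Cells build cholesterol from acetyl-CoA through mevalonate, squalene and lanosterol. Most enzymes of that path are switched on together by SREBP-2, the product of Srebf2, a transcription factor held in the endoplasmic reticulum by SCAP and the INSIG proteins while sterols are plentiful and released when they run low. SREBP-1, the product of Srebf1, drives mainly the genes of fatty acid synthesis. Both factors work with NF-Y and Sp1 on promoters that carry sterol regulatory elements. Dividing cells need both kinds of lipid for new membranes.

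Promoter sequence was held for 26 of the 33 genes in RefSeq's table (GRCm38.p6), 5 of them with more than one start, and the 250 bases before each start were searched on both strands. The sterol regulatory element TCACNCCAC was found in 1 of the 26 genes, Hmgcs1, and in 1.22% of the 27025 genes in the table. In the looser form TCACNCNAC it was found in 2, Hmgcs1 and Nsdhl, and in 2.65% of all genes. Tm7sf2, Hsd17b7, Acat2, Idi1 and Cyp51, which ranged wider than Hmgcs1 over the libraries, had a sequence but no match to either form. The NF-Y box CCAAT stood before 17 of the 19 sterol-arm genes and 3 of the 7 fatty acid genes with a sequence, and before 37.5% of all genes. The Sp1 box GGGCGG stood before 18 of the 19 and 4 of the 7, and before 35.4% of all genes. The E-box CACGTG stood before 5 of the 19, 0 of the 7 and 6.86% of all genes. These shares are of all 27025 genes with a sequence, not of the 12813 genes tested, so expressed genes were not compared alone. A match is a description of the letters and not a site shown to be bound. The lack of a match does not show that an element is absent. The windows of 5 genes are printed because their expression takes the different courses described next. They are Nsdhl and Hmgcs1, which have a TCACNCNAC match, and Mvk, which moved with them. The others are Mvd, which did not, and Fasn of the fatty acid arm. Each window is read 5′ to 3′ on the gene's strand up to the base before the RefSeq start and holds no GENCODE exon of its gene. Capitals mark TCACNCNAC and CCAAT, which reads ATTGG on the other strand.
Nsdhl, chrX:72918271-72918520, plus strand: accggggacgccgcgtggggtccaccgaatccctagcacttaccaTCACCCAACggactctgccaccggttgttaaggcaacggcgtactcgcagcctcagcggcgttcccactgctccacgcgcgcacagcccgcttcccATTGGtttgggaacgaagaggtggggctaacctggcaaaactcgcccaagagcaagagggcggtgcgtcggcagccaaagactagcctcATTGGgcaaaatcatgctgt
Hmgcs1, chr13:119690101-119690350, plus strand: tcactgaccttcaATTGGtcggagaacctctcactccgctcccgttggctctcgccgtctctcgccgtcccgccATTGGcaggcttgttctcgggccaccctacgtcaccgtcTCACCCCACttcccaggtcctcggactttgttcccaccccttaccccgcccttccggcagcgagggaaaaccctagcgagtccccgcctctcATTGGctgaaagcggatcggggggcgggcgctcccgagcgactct
Mvk, chr5:114444019-114444268, plus strand: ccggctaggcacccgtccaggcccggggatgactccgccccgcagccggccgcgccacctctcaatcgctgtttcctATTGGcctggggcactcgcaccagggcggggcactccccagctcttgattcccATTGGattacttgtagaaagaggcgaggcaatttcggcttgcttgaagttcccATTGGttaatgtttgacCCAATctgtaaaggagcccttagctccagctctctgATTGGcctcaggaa
Mvd, chr8:122443423-122443672, minus strand: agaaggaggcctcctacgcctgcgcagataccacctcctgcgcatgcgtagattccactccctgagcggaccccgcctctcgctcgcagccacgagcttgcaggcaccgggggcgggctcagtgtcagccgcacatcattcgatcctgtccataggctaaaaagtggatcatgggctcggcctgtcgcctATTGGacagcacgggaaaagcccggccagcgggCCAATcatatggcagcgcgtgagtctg
Fasn, chr11:120824548-120824797, minus strand: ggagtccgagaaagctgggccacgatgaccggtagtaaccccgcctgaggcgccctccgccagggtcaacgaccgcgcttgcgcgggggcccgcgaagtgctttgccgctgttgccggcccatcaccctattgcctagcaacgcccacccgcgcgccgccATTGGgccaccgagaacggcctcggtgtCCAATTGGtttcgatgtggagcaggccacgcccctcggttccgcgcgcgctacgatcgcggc
The match to TCACNCNAC begins at position -137 in Hmgcs1 and at -205 in Nsdhl, counted from the start at 0. Mvk holds 5 NF-Y boxes, Hmgcs1 3, Nsdhl 2 and Mvd 2. Fasn holds 3, of which the boxes at -62 and -59 lie on opposite strands and overlap.

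Nearly the whole pathway stood lowest in library 1. This held for 30 of the 33 genes, 20 of the 23 in the sterol arm and all 10 in the fatty acid arm, where 11.4% of all genes tested were lowest in that library. The exceptions were Mvd, Insig2 and Scap. The arms differed in where they were highest: 16 of the 23 sterol-arm genes and 2 of the 10 fatty acid genes were highest in library 8 (17.1% of all genes tested), whereas 3 and 5 of them were highest in library 9 (17.4%). For the fatty acid arm this order turned with library totals in place of TMM, with 4 genes highest in library 8 and 3 in library 9.

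**Figure D1:**
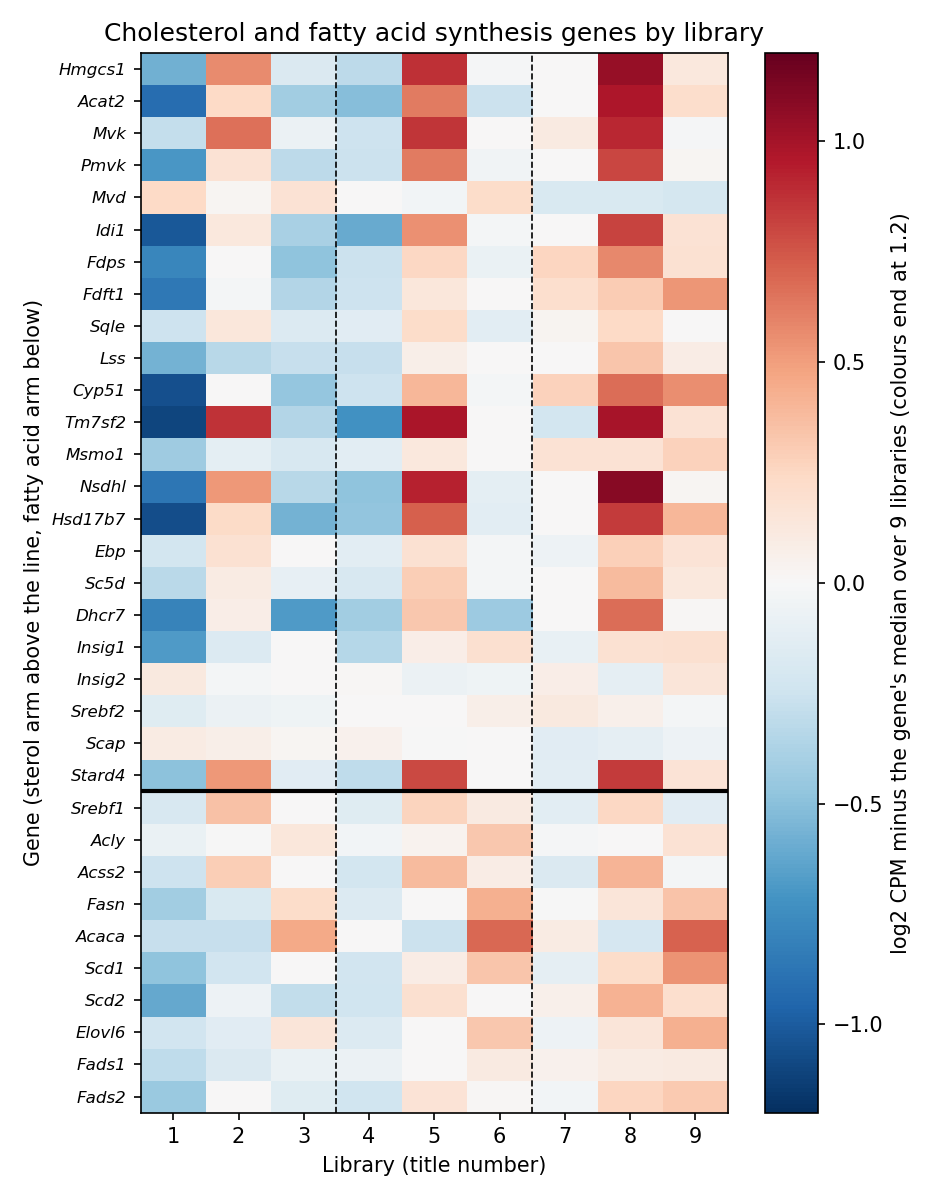
Level of each of the 33 genes (rows, by role) in each library (columns, by title number), as log2 CPM minus the gene's median over the 9 libraries; dashed lines part the blocks of title numbers. Above the line, 10 of 23 sterol-arm genes, such as Nsdhl and Hmgcs1, are redder in libraries 2, 5 and 8 than in the other 6, while Acaca, Fasn and Scd1 below it are reddest in libraries 6 and 9.

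Dispersion over the 9 counts exceeded that of counting alone for all 33 genes (chi-square test, Benjamini-Hochberg adjusted over all genes), as it did for 94.1% of all genes tested, a share that leaves little to tell genes apart. A gene is called variable here when its highest and lowest library also differed at least 2-fold, that is by 1 on the log2 scale. In the sterol arm 13 of 23 genes (56.5%) were variable and in the fatty acid arm 2 of 10 (20.0%), against 28.0% of all genes tested. The median range was 1.34 on the log2 scale in the sterol arm, 0.71 in the fatty acid arm and 0.69 over all genes tested. The sterol arm's count was between 12 and 13 whichever library was left out. The fatty acid arm's count was 0 without library 1, 1 without library 8 and 1 without library 9, since its 2 variable genes lay just past the threshold, at 1.04 for Scd2 and 1.02 for Scd1, and Acaca just under it at 0.99.

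**Figure D2:**
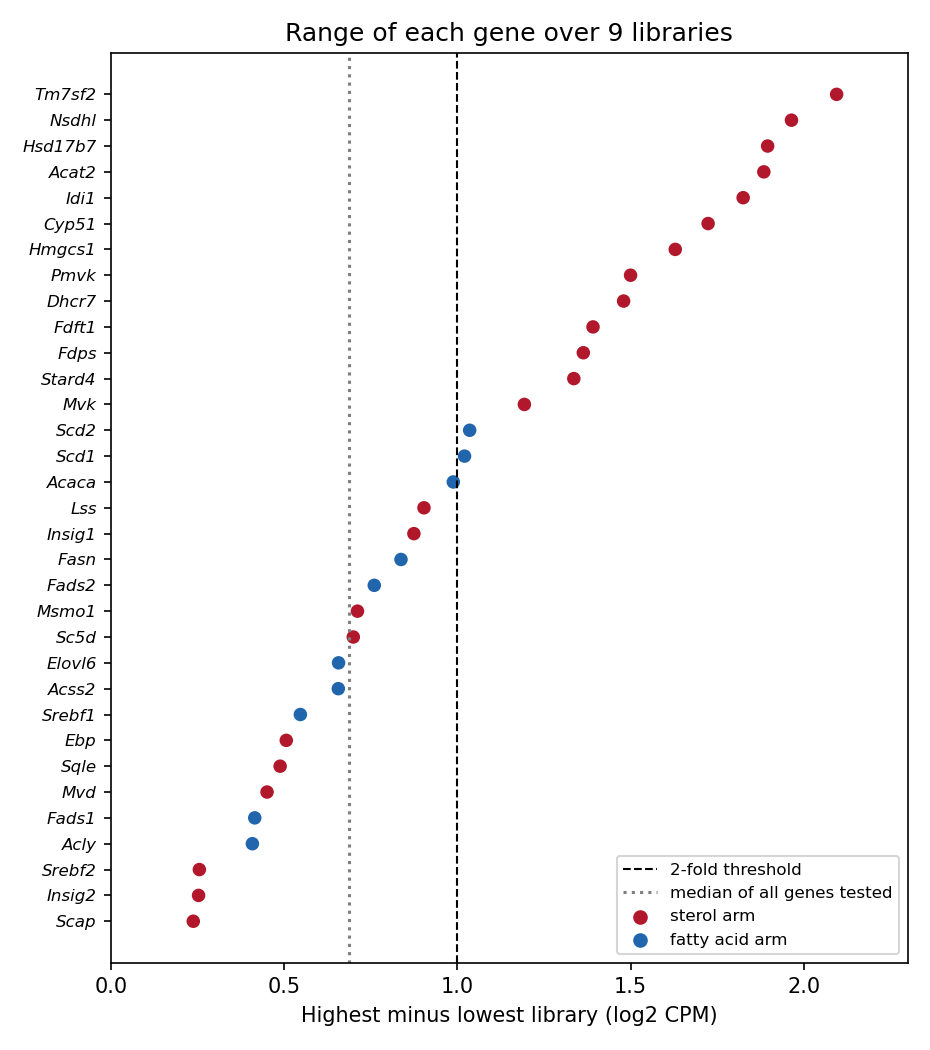
Highest minus lowest library, in log2 CPM, for each of the 33 genes; red points are the sterol arm, blue points the fatty acid arm. The 13 genes of widest range are all of the sterol arm, from Mvk at 1.19 to Tm7sf2 at 2.10.

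The path opens with Acat2, the cytosolic thiolase that joins acetyl-CoA units, and Hmgcs1, which makes HMG-CoA. Acat2 stood at 36.9, 82.0, 52.2, 48.7, 107, 58.2, 69.6, 137 and 80.7 CPM in libraries 1 to 9. Hmgcs1 stood at 119, 264, 158, 143, 328, 176, 178, 369 and 195 CPM in libraries 1 to 9. Both were highest in the second library of each block, and for both the values of libraries 2, 5 and 8 lay above the other 6. The highest library exceeded the lowest 3.70-fold for Acat2 (95% interval 3.46 to 3.96) and 3.09-fold for Hmgcs1 (2.98 to 3.21). These intervals, here and below, are exact binomial intervals on estimated counts and cover counting error only. They make no allowance for the choice of the highest and lowest library from the same counts.

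Mevalonate is then phosphorylated by the products of Mvk and Pmvk, decarboxylated by that of Mvd, isomerised by that of Idi1 and joined into farnesyl diphosphate by that of Fdps. Mvk stood at 19.3, 37.2, 22.4, 19.8, 42.7, 23.5, 25.2, 44.1 and 23.2 CPM in libraries 1 to 9. Pmvk stood at 22.4, 41.2, 29.4, 30.4, 56.2, 35.4, 36.4, 63.6 and 36.9 CPM, and in both kinases libraries 2, 5 and 8 were clear of the rest. Idi1 had 38.9, 86.5, 60.4, 51.9, 116, 77.5, 79.0, 138 and 88.8 CPM in libraries 1 to 9. Its second library was highest in each block, yet library 9 (88.8 CPM) passed library 2 (86.5 CPM), so the sets overlap. Fdps had 109, 187, 134, 156, 222, 177, 224, 279 and 212 CPM, with library 7 above libraries 2 and 5. The folds of highest over lowest library were 3.55 for Idi1 (3.32 to 3.79), 2.83 for Pmvk (2.60 to 3.10), 2.57 for Fdps (2.47 to 2.68) and 2.29 for Mvk (2.08 to 2.53).

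Mvd, between Pmvk and Idi1 in the path, did not follow them. It stood at 449.6, 387, 431, 381, 372, 444, 337, 337 and 329 CPM in libraries 1 to 9. It was highest in library 1, where its neighbours were lowest, and libraries 7 to 9 all lay below libraries 1 to 3. The range was 0.45 on the log2 scale, or 1.37-fold (1.32 to 1.41). Mvd and Scap were the 2 of the 33 genes with libraries 7 to 9 all below 1 to 3, against 11.0% of all genes tested.

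Fdft1 makes squalene, Sqle oxidises it and Lss closes the ring to lanosterol. Fdft1 had 92.3, 165, 131, 141, 183, 167, 192, 207 and 242 CPM in libraries 1 to 9, a 2.62-fold range (2.50 to 2.76) that ended in library 9 and not 8. Its range was 0.89 on the log2 scale without library 1, under the 2-fold threshold. Lss had 82.8, 97.3, 102, 102, 129, 123, 123, 155 and 131 CPM. Sqle had 78.3, 102, 83.1, 84.7, 108, 85.1, 95.4, 109.8 and 93.0 CPM. Sqle was highest in the second library of each block but spanned only 1.40-fold (1.33 to 1.48), and Lss 1.87-fold (1.78 to 1.96).

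Of the 8 genes from lanosterol to cholesterol, 5 were variable, against 28.0% of all genes tested. Tm7sf2, a sterol reductase gene and the widest-ranging of the 33, stood at 3.07, 12.2, 5.21, 3.99, 13.2, 6.66, 5.71, 13.3 and 7.49 CPM in libraries 1 to 9. Nsdhl, a dehydrogenase that helps to strip methyl groups from the sterol, stood at 26.3, 69.1, 38.1, 34.3, 91.3, 44.2, 48.1, 103 and 49.0 CPM. In both, libraries 2, 5 and 8 stood clear of the other 6. Hsd17b7, the ketoreductase of the same step, stood at 11.0, 27.0, 15.5, 16.5, 37.8, 20.9, 22.9, 41.0 and 30.2 CPM, and here library 9 passed library 2. The folds were 4.34 for Tm7sf2 (3.45 to 5.51), 3.91 for Nsdhl (3.62 to 4.23) and 3.74 for Hsd17b7 (3.31 to 4.23). Cyp51, the lanosterol demethylase gene, had a highest value of 279 CPM, a median of 176 and a lowest value of 84.5, and Dhcr7, the reductase of the last step, 86.6, 54.3 and 31.0 CPM. Msmo1, the methylsterol oxidase gene, had 202, 166 and 123 CPM, Sc5d, a desaturase gene, 131, 101 and 80.4 CPM, and Ebp, a sterol isomerase gene, 58.5, 47.9 and 41.2 CPM, all 3 under 2-fold. Of the lanosterol-to-cholesterol genes, Msmo1 alone was highest in library 9.

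**Figure D3:**
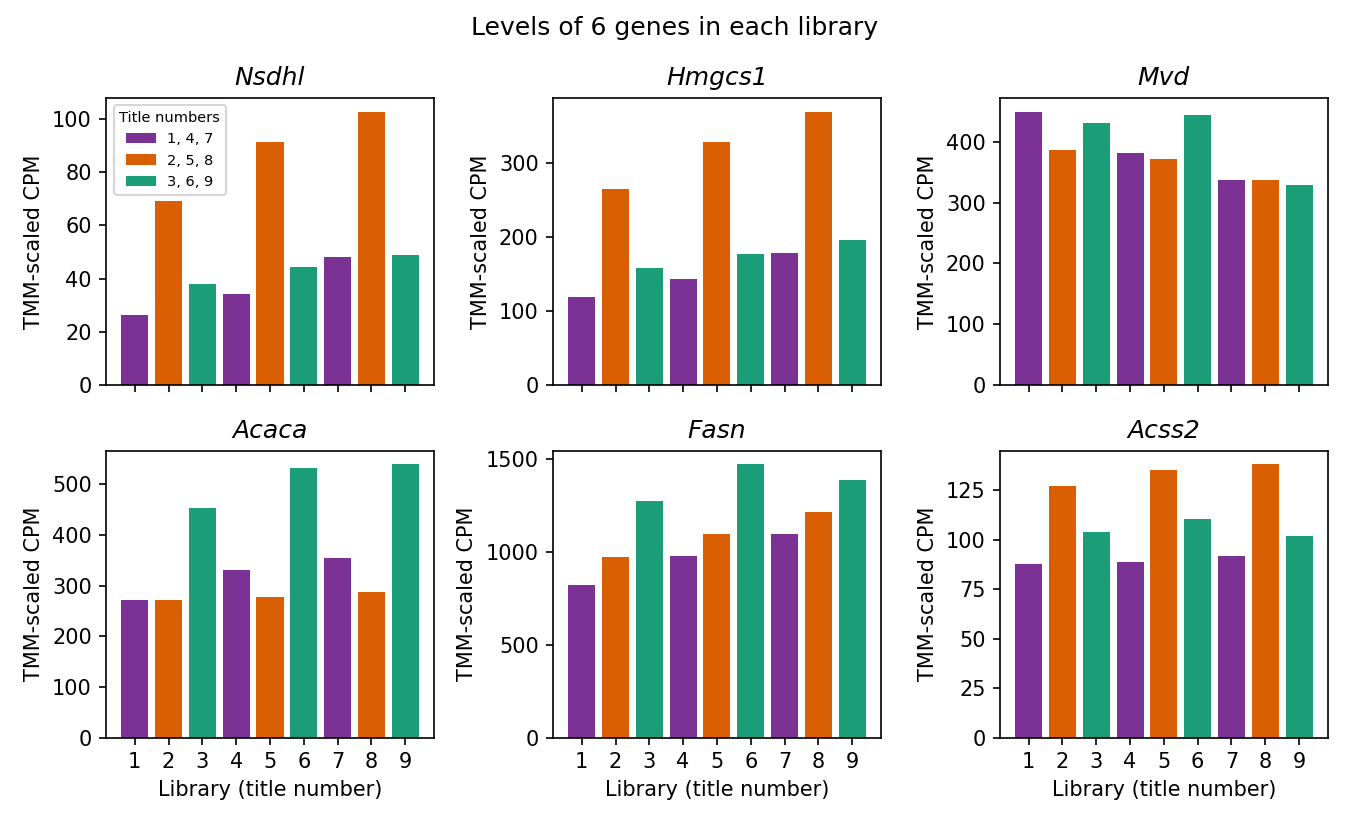
Level (TMM-scaled CPM, axes from 0) of 6 genes in each library, coloured by place in the block of title numbers; there is 1 bar per library and no error bar. Nsdhl and Hmgcs1 stand out in libraries 2, 5 and 8, Acss2 does so less, Acaca and Fasn are highest in libraries 3, 6 and 9, and Mvd lies between 329 and 449.6 CPM.

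Srebf2, Scap and Insig2, of the sterol-sensing machinery, moved least. Srebf2 stood at 212, 222, 225, 233, 233, 246, 252, 244 and 229 CPM in libraries 1 to 9. Scap, the escort protein of SREBP, stood at 107, 104, 101, 103, 99.5, 99.7, 90.6, 92.6 and 95.7 CPM. Insig2 stood at 43.5, 39.5, 40.1, 40.6, 38.2, 38.6, 42.4, 37.1 and 44.2 CPM. Their ranges were 0.25, 0.24 and 0.25 on the log2 scale, the 3 narrowest of the 33. Each still exceeded counting noise, least clearly Insig2 (chi-square test across all genes, adjusted p 4.95e-05). Insig1, itself a known SREBP target, had 164, 234, 263, 207, 277, 300.1, 247, 297 and 300.01 CPM, a 1.83-fold range (1.77 to 1.90). It was highest in the third library of each block, though libraries 8 and 9 hardly differed and the order did not hold with RLE size factors or library totals in place of TMM. Stard4, which carries sterols between membranes, followed the enzymes with 42.2, 85.6, 54.1, 48.1, 103, 59.6, 54.5, 107 and 66.9 CPM, libraries 2, 5 and 8 lying above the rest.

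In the fatty acid arm, acetyl-CoA is supplied by Acly from citrate and by Acss2 from acetate, Acaca makes malonyl-CoA and Fasn builds palmitate. Acaca stood at 272, 272, 454, 330.3, 277, 533, 354, 288 and 539 CPM in libraries 1 to 9. Fasn stood at 823, 969, 1274, 977, 1097, 1470.5, 1096, 1212 and 1388 CPM. Acly stood at 1417, 1502, 1646, 1464, 1551, 1879.95, 1489, 1502 and 1694 CPM. In all 3 the third library of each block was highest and libraries 3, 6 and 9 lay above 1, 4 and 7. The latter order held for 6 of 10 fatty acid genes and 2 of 23 sterol-arm genes, against 10.9% of all genes tested. Acss2 was among the 6, at 87.6, 127, 104, 88.9, 135, 111, 92.0, 138 and 102 CPM, but its second library was highest in each block. Its libraries 2, 5 and 8 lay above the other 6, as in 10 of 23 sterol-arm genes and 19.0% of all genes tested. Srebf1 had this order too, with 265, 387, 304, 274, 365, 328, 279, 361 and 276 CPM, a 1.46-fold range (1.42 to 1.50). Neither gene rose from block to block at every place.

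Elovl6 elongates palmitate, Scd1 and Scd2 desaturate saturated fatty acids, and Fads1 and Fads2 desaturate polyunsaturated ones. Scd1 stood at 800.1, 953, 1117, 955, 1186, 1406, 1037, 1302 and 1623 CPM in libraries 1 to 9. Scd2 stood at 1336, 1969, 1665, 1739.8, 2339.5, 2049, 2135, 2738 and 2357 CPM. The paralogs thus parted by place: Scd1 was highest in the third library of every block and Scd2 in the second, though their ranges were alike at 2.03-fold (1.99 to 2.06) and 2.05-fold (2.03 to 2.07). They are similar copies between which the counting method may have divided reads. Elovl6 had 134, 143, 174, 140.4, 157, 197, 151, 174 and 211 CPM, the course of Scd1. Fads1 had a highest value of 644 CPM, a median of 597 and a lowest of 483. Fads2 had 365, 498, 450.4, 422, 559, 502, 488, 597 and 617 CPM in libraries 1 to 9. Both peaked in library 9 and had their minimum in library 1.

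Counted over the list, 15 of 23 sterol-arm genes and 3 of 10 fatty acid genes were highest in the second library of all 3 blocks, against 28.6% of all genes tested. The third library was highest in all 3 blocks for 1 of 23 sterol-arm genes, Insig1, and 6 of 10 fatty acid genes, against 12.1%. The 6 were Fasn, Acaca, Acly, Scd1, Elovl6 and Fads1. The first library was lowest in all 3 blocks for 15 of 23 and 8 of 10, against 11.6%, and highest in all 3 for 0 of 33, against 15.4%. Values of libraries 2, 5 and 8 all above the other 6 were seen for 10 sterol-arm genes and for Srebf1 and Acss2, against 19.0% of all genes tested, and below the other 6 for 0 of 33, against 20.1%. Libraries 7 to 9 all lay above libraries 1 to 3 for 6 sterol-arm genes (Fdps, Fdft1, Lss, Cyp51, Msmo1 and Srebf2) and for Scd2 and Fads1, against 9.33%. No p is given for these counts or for the difference between the arms, since the list was chosen with results of these data known.

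A step between blocks lay over this order. At every place in the block, 16 of 23 sterol-arm genes and 6 of 10 fatty acid genes were higher in libraries 4 to 6 than in 1 to 3 and higher again in 7 to 9, against 13.5% of all genes tested. The opposite order held for 1 gene, Scap, against 12.6%. The median sterol-arm difference on the log2 scale was 0.59 for library 7 minus 1, 0.33 for 8 minus 2 and 0.33 for 9 minus 3. In the fatty acid arm it was 0.37, 0.27 and 0.22. The median over all genes tested was between 0 and 0.01 in each of these pairs. Within a block, library 2 minus 1, 5 minus 4 and 8 minus 7 gave median sterol-arm differences of 0.84, 0.51 and 0.38, and fatty acid differences of 0.24, 0.24 and 0.25. Set against the third library, 2 minus 3, 5 minus 6 and 8 minus 9 gave 0.46, 0.35 and 0.25 in the sterol arm. The fatty acid arm gave -0.11, -0.18 and -0.11, so the arm medians took opposite signs in all 3 blocks. Single genes were mixed: 18 of 23 sterol-arm genes were up in each pair, and 4, 4 and 3 of 10 fatty acid genes. The medians over all genes tested were -0.02, -0.03 and -0.01. With library totals in place of TMM the fatty acid medians were only -0.07, -0.10 and -0.02.

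The same is seen in the score of each arm, the median over its genes of each gene's log2 CPM after subtraction of that gene's median. The sterol score was -0.58, 0.10, -0.19, -0.26, 0.30, -0.02, 0, 0.58 and 0.14 in libraries 1 to 9. The fatty acid score was -0.29, -0.10, 0, -0.17, 0.07, 0.21, -0.02, 0.18 and 0.26. The sterol score exceeded the fatty acid score in libraries 2, 5, 7 and 8, by 0.40 in library 8, and lay below it in the others. Summed over its genes, the sterol arm held 2017, 2791, 2393, 2318, 3217, 2708, 2723, 3517 and 2933 CPM and the fatty acid arm 5983, 7349.7, 7751, 6959, 8263, 9117, 7741, 8949.7 and 9452 CPM. The sums are led by the abundant Scd2, Acly, Fasn and Scd1 in the fatty acid arm.

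**Figure D4:**
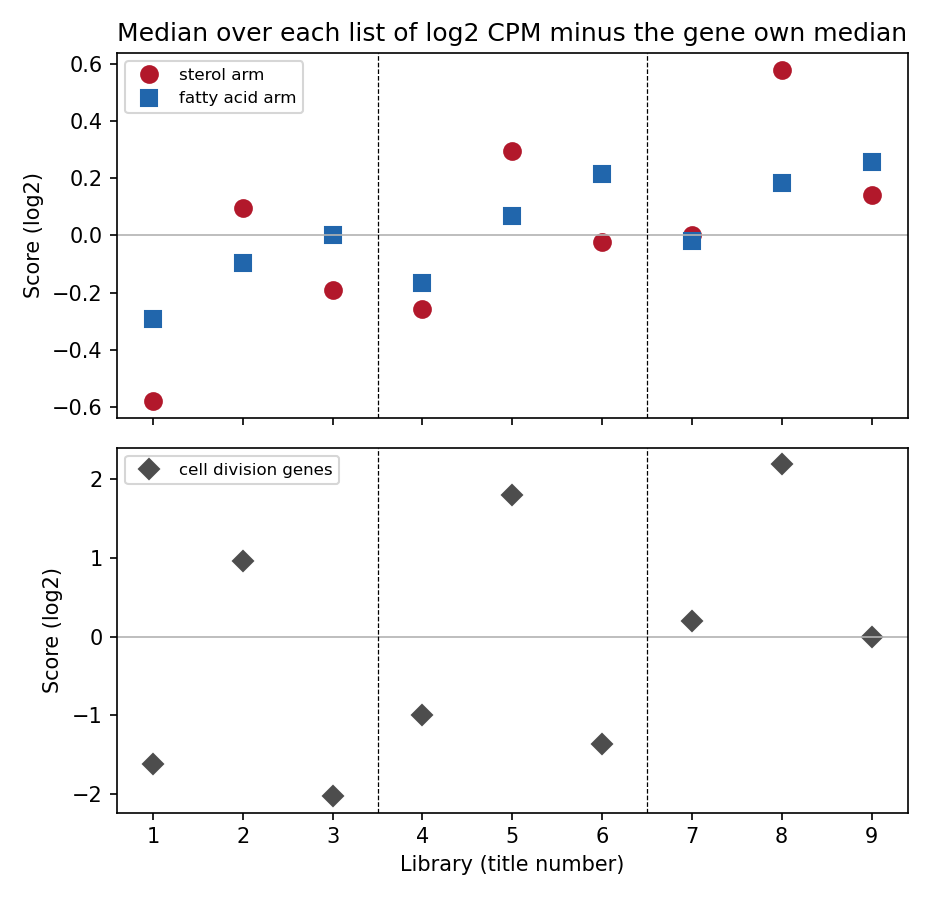
Score of the sterol arm (red circles) and the fatty acid arm (blue squares) in each library, above, and of 10 cell division genes (diamonds), below, each as the list's median log2 CPM after subtraction of every gene's median; dashed lines part the blocks. The sterol score peaks at 0.58 in library 8 and the fatty acid score at 0.26 in library 9, and the division score runs from -2.02 to 2.19.

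The score of cell division genes was also highest in the second library of each block. That score, over 10 genes of which all 10 were variable, was -1.62, 0.95, -2.02, -1.00, 1.80, -1.36, 0.20, 2.19 and 0 in libraries 1 to 9, and their summed level 39.7, 223, 31.8, 56.7, 356, 44.4, 126, 491 and 107 CPM. Mki67, the gene of the marker Ki-67, and Cenpf, a kinetochore gene, had the widest ranges of the list, at 149 CPM in library 8 against 4.98 in library 3 and at 43.5 CPM in library 8 against 1.15 in library 1. The division score was lowest in library 3 and the sterol score in library 1. The part of the division genes in the sterol result was not tested. With libraries 2, 5 and 8 left out, a choice made after seeing the data, 7 of 23 sterol-arm genes were still variable, against 13.4% of all genes tested in those 6 libraries, and the sterol score range was 0.67 instead of 1.16. The 6 that lost the call were Hmgcs1, Mvk, Pmvk, Nsdhl, Dhcr7 and Stard4.

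Per kilobase of exon, at the median library, Scd2 was the most abundant of the 33 genes with 375 CPM per kb, followed by Acly with 285, Scd1 with 228 and Mvd with 205. Fads2 had 151, Fads1 124 and Fasn 100.2 CPM per kb. Among the remaining sterol-arm genes Insig1 stood first with 84.9, ahead of Fdps (44.4), Cyp51 (39.8), Fdft1 (39.6) and Hmgcs1 (38.8). The lowest were Hsd17b7 with 4.50 and Tm7sf2 with 1.51 CPM per kb. Srebf1 at 53.9 CPM per kb lay above Srebf2 at 32.5.

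Exons of 12 of the 33 genes overlap those of another gene in GENCODE M21, 9 of them on the opposite strand, among these Fdft1 with Ctsb, Cyp51 with Akap9 and Srebf1 with Rai1. The sources used here do not say whether strand was used in counting, so reads of such partners cannot be told apart. Tm7sf2 shares exon sequence with Vps51 on its own strand. On GRCm38 the 33 genes are protein-coding and spread over many chromosomes. Mvd (ENSMUSG00000006517) lies on chromosome 8 at 122433601 to 122443422, Nsdhl (ENSMUSG00000031349) on chromosome X at 72918557 to 72958514 and Acaca (ENSMUSG00000020532) on chromosome 11 at 84129672 to 84401651. Fads1 and Fads2 lie side by side on chromosome 19, at 10182888 to 10196877 and 10062765 to 10101746, and Scd1 and Scd2 on the same chromosome at 44394455 to 44407879 and 44293674 to 44306864.

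Other genes of lipid handling were counted from lists, and the 2 measured genes of widest range in each are named. Each count stands against 28.0% variable and a median range of 0.69 over all genes tested. Of 8 genes of sterol export and LXR targets 5 were variable, with a median range of 1.12 on the log2 scale. Abcg1, a sterol exporter, stood at 15.5, 13.4, 25.0, 17.1, 11.3, 31.4, 17.0, 8.95 and 29.5 CPM in libraries 1 to 9. Abca1, another exporter, stood at 39.2, 42.5, 44.9, 24.3, 31.1, 37.8, 15.1, 18.4 and 25.9 CPM. Abcg1 was high in libraries 3, 6 and 9 and lowest in 8, and Abca1 was lower in libraries 7 to 9 than in 1 to 3 at every place. Of 12 genes of sterol traffic and esterification 5 were variable (median range 0.87). Gramd1b, a sterol transporter gene, had 14.0, 7.19, 17.2, 23.3, 7.55, 26.9, 30.8, 10.6 and 28.8 CPM, and Vldlr, a lipoprotein receptor gene, 249, 122, 222, 236, 116, 235, 217, 109 and 266 CPM. Both were lowest in the second library of each block, as were 29.5% of all genes tested.

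The next counts also stand against 28.0% variable over all genes tested. Of 8 genes that process SREBP or degrade sterol enzymes 1 was variable, Trib1, with 223 CPM in library 1 but 106 CPM in library 7. Erlin1, of the degradation machinery, reached 98.0 CPM in library 7 but 50.3 CPM in library 5. Of 8 genes of the isoprenoid branch, which leaves the sterol path at farnesyl diphosphate or just before it, 1 was variable, Pdss1, which builds the tail of coenzyme Q, with 4.30 CPM in library 7 but 1.70 CPM in library 3. Ggps1, the geranylgeranyl diphosphate synthase gene, ranged by 0.45 on the log2 scale, with 45.3 CPM in library 7 and 33.1 in library 8. The median range of that list was 0.39. Of 14 other lipogenic and lipid storage genes 13 were measured and 4 were variable, a share near that of all genes. Plin2, the lipid droplet coat gene, stood at 1375, 645, 1433, 1565, 607, 1710.3, 1772, 658 and 1841 CPM in libraries 1 to 9. Its libraries 2, 5 and 8 lay far below the other 6, and 20.1% of all genes tested had them all below. Thrsp, a lipogenic gene of low level, had 2.33 CPM in library 6 and 0.348 in library 1. Of 10 genes of fatty acid oxidation 1 was variable, Acadm, a dehydrogenase gene, with 114 CPM in library 2 but 49.1 CPM in library 7, while Cpt1a, which admits fatty acids to mitochondria, had 129 CPM in library 8 and 75.6 in library 1.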

How the data were processed

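Poly(A) RNA of 9 libraries was sequenced. The authors deposited 1 table of expected counts per gene (estimated counts, rounded to whole numbers and not normalised), for which RSEM 1.3.3 and STAR 2.7.8a are named in the submitters' processing notes. These also name the build GRCm38, cutadapt 2.3 and FastQC 0.11.8. The sources used here give neither the annotation release nor the strand setting. Reads that match several genes are shared out by likelihood in RSEM, so similar copies are less certain.

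All 9 count columns matched 1 title each, and 0 were left unmapped. Counts were scaled with TMM factors (edgeR 4.0.16, R 4.3.3), and log2 CPM had a prior count of 2. The edgeR filter (10 counts at the median library size, 15 in total) was run without groups and so asks for the minimum in every library. The chi-square test of dispersion with Benjamini-Hochberg adjustment was tested on simulated counts with counting noise alone and some genes raised in a single library. Of the genes tested here 94.1% exceeded such noise, so the simulation does not show how the test behaves on these data. With no groups there was no coefficient for a quasi-likelihood test. In the shallowest library 3 counts equalled 0.164 CPM, and in the deepest 0.0742 CPM. Intervals are exact 95% conditional binomial intervals on the estimated counts, with no allowance for the choice of the highest and lowest library. Alternatives were RLE factors, totals alone, other filters and prior counts of 0.5 and 5, and leaving out libraries.

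The 33 genes, the lists and the tests were chosen with earlier results of these data known. Values in all 9 libraries are given for the 3 genes of widest range in each role and for the regulators, and also for Mvk, Mvd and Elovl6, chosen after their values were seen. The others are given by highest, median and lowest library, or by fewer values. Coordinates and exon lengths are from GENCODE M21 and promoters from RefSeq, both on GRCm38.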

Additional observations from a re-analysis of the deposited data

How the results depend on the processing

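The sterol arm's count of variable genes was 13 under RLE size factors, totals alone, both other filters and both other prior counts, and 12 to 13 with 1 library left out. The fatty acid arm's count was 2 under these settings except RLE (3, with Acaca at 1.00), and 0 to 3 with 1 library left out. The count over all genes was 6412 of 27105 with no filter, more genes being tested, and 3268 to 3560 with 1 library left out. The score range was 1.16 in the sterol arm and 0.55 in the fatty acid arm. It was 1.19 and 0.57 with RLE factors, and 0.81 to 1.24 and 0.46 to 0.58 with 1 library left out, lowest without library 1 in both. Without title numbers 2, 5 and 8, an alternative chosen after seeing the data, 1734 genes, 7 sterol-arm genes and 1 fatty acid gene were variable and the score ranges were 0.67 and 0.60. Without title numbers 1, 2 and 3, likewise chosen, 10 sterol-arm genes and 0 fatty acid genes were variable, against 22.0% of all genes, and the score ranges were 0.71 and 0.42. With fewer libraries a gene's range can only narrow apart from rescaling, but the fatty acid score range was wider without 2, 5 and 8. The cause of the changes in score range was not tested. Place orders and library-pair medians were recomputed, by a choice made after seeing the data, under RLE factors, totals alone and both other prior counts. No pair median changed sign, though the fatty acid median for library 8 minus 9 was only -0.02 with totals alone. Under RLE factors and under totals alone, 0 sterol-arm genes were highest in the third or lowest in the second library of all 3 blocks, in place of 1 each (Insig1 and Insig2). With totals alone 4 fatty acid genes were highest in library 8 and 3 in library 9. The other counts of place orders stayed within 1.5 times. No paired analysis was possible because the labels tie no library to a group. Depth limits Tm7sf2 most, as its fold interval of 3.45 to 5.51 shows.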

Other observations

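Beside the genes named by rule, some others of the lipid lists took a place order seen in genes of one arm, or its opposite. They were chosen after their values were seen, from lists whose genes were not counted by place order. Such orders were common: over all genes tested the second library was highest in all 3 blocks for 28.6% and lowest for 29.5%. Libraries 2, 5 and 8 all lay above the other 6 for 19.0% and below them for 20.1%. The share with libraries 3, 6 and 9 above the other 6 was not taken. Scarb1, a lipoprotein receptor gene, stood at 39.8, 57.3, 41.6, 49.0, 75.1, 49.8, 61.4, 91.8 and 48.5 CPM in libraries 1 to 9, highest in the second library of each block. Lpin1, a phosphatidic acid phosphatase gene, stood at 33.2, 57.5, 43.9, 41.6, 62.0, 47.5, 48.7, 73.5 and 48.1 CPM, with libraries 2, 5 and 8 above the other 6. Soat1, which esterifies cholesterol, stood at 65.1, 50.7, 63.4, 76.3, 50.4, 80.7, 97.5, 59.4 and 116 CPM, lowest in the second library of each block. Nceh1, which hydrolyses cholesterol esters, stood at 62.8, 44.8, 64.9, 73.3, 36.5, 72.9, 82.6, 38.1 and 83.7 CPM, and Npc1, which moves cholesterol out of lysosomes, at 98.1, 71.8, 103, 115, 66.9, 116, 134, 68.0 and 141 CPM. In both, libraries 2, 5 and 8 lay below the other 6. Nr1h3, the gene of the receptor LXR alpha, stood at 42.4, 44.5, 59.6, 45.3, 43.3, 64.1, 43.0, 39.5 and 63.0 CPM, with libraries 3, 6 and 9 above the other 6, as Acaca was. Osbp, an oxysterol-binding protein gene, hardly moved, between 72.8 and 76.8 CPM.

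None of the 33 genes or the 2 arm scores had a single library set apart from the other 8 by the Dixon criterion at its 95% level, at which chance marks about 1 in 20 sets of values.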
